A study of Mus musculus with 6 samples.

Results

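The genes described here make cholesterol, sense it and move it out of the cell. They are 37 named genes of mouse pancreas RNA sequencing libraries, taken by symbol from a count table of 36333 rows. They comprise 18 enzymes of cholesterol synthesis, 5 regulators around the sterol regulatory element binding proteins (SREBP), 9 genes of sterol export, storage and the liver X receptors (LXR), and 5 genes of fatty acid synthesis. The study asked which mRNAs and lncRNAs change early in acute pancreatitis. It compared 3 pancreas libraries from WT mice given cerulein by intraperitoneal injection with 3 from WT mice given saline in the same way. Cerulein, an analogue of cholecystokinin that overstimulates the enzyme-secreting acinar cells, came as 10 injections of 200 µl (200 µg/kg/h), and the tissue was taken when these were complete. The labels give no strain, sex or age, and do not say whether each library came from a separate animal, so p-values measure the spread between these libraries, which may be in part technical.

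Cholesterol is built from acetyl-CoA through mevalonate, farnesyl pyrophosphate, squalene and lanosterol. When membranes of the endoplasmic reticulum are low in sterol, the escort protein Scap carries SREBP to the Golgi, where proteases free a fragment that switches on synthesis genes; Insig proteins hold Scap back when sterol is plentiful. LXR, activated by oxysterols, switches on the exporters Abca1, Abcg1, Abcg5 and Abcg8, the ubiquitin ligase Mylip and Srebf1. In acinar cells, which pack digestive enzymes into membrane-bound granules, cholesterol is a component of the membranes of the secretory route.

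The promoters show what the synthesis genes share in sequence. SREBP binds sterol regulatory elements and is known to act with NF-Y, the factor that binds the CCAAT box. RefSeq windows (GRCm38.p6) were found for 30 of the 37 genes, and the 250 bases before each start were searched on both strands. The enzyme genes without a window, and so not searched, were Fdft1 and also Fdps and Sqle, whose transcripts were higher after cerulein. CCAAT occurred in 14 of 15 synthesis enzyme genes (93.3%), all but Acat2, and in 4 of 5 regulators. It occurred in 3 of 7 genes of export, storage and LXR (42.9%), and in 37.5% of all genes with a window. A gene with several windows has more places to match. By window, CCAAT was in 14 of 18 for the enzymes (77.8%), 5 of 10 for the regulators and 33.8% of all. The SREBP element letters TCACNCCAC were in 1 of the 15 synthesis enzyme genes, Hmgcs1, against 1.22% of all genes; the looser TCACNCNAC, which includes every TCACNCCAC, was in Hmgcs1 and Nsdhl, against 2.65%. DR4, the LXR element of a pair of AGGTCA half-sites 4 bases apart with up to 1 mismatch in each, was in none of the 30 genes, against 1.71% of all genes. These matches describe letters in a window and say nothing of binding.

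Upstream sequences of 4 genes are printed as examples, 5′ to 3′ on the gene's strand, and no result below depends on them. They are from an enzyme and a regulator with higher transcript, an enzyme with lower transcript, and the exporter pair that was close to undetected after cerulein. Capitals mark CCAAT, its reverse ATTGG, and in Hmgcs1 also the SREBP element. The Hmgcs1 stretch lies at chr13:119690101-119690350 on the plus strand and ends just before the start, with the SREBP element 137 to 129 bases upstream. The Insig2 stretch lies at chr1:121332663-121332839 on the minus strand, beyond the outermost annotated start and 250 to 74 bases before the start of its RefSeq window, whose other CCAAT letters, 46 to 42 and 29 to 25 bases upstream, are not printed. That of Ebp lies at chrX:8193513-8193692 on the minus strand. The Abcg8 stretch, chr17:84683012-84683120 on the plus strand, runs from the Abcg5 start to the Abcg8 start of the RefSeq window; a longer Abcg8 transcript starts within Abcg5, so the annotated gene spans leave no gap. The printed bases hold none of the letters searched, while CCAAT lies just beyond them, 114 to 110 and 175 to 171 bases before that Abcg8 start, within the Abcg5 span.
Hmgcs1: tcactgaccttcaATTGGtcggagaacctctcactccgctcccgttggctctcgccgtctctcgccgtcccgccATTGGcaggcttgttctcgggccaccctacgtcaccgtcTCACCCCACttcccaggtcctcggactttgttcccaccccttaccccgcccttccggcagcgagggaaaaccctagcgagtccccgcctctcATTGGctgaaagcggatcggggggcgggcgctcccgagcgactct
Insig2: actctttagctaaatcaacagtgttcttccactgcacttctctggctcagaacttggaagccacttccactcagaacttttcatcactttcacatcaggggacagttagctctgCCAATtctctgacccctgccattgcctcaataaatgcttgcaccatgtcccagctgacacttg
Ebp: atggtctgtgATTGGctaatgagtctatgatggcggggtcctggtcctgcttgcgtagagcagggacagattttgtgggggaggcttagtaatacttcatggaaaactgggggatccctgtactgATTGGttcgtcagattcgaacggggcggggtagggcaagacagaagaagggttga
Abcg8: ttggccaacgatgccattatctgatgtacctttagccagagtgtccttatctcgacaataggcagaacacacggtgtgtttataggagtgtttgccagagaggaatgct
The CCAAT box therefore occurs before genes with higher transcript and before Ebp, whose transcript was lower. It also occurs before enzyme genes that were not called: Mvk, Pmvk, Mvd, Tm7sf2, Nsdhl, Hsd17b7, Sc5d and Dhcr7. In Msmo1, the enzyme gene with the largest fitted rise, it lies 160 to 156, 96 to 92 and 55 to 51 bases upstream, and in Cyp51 29 to 25 bases upstream.

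Total counts ran from 6307887 to 7610775 in cerulein and from 5335117 to 7194125 in saline libraries. Levels are given as CPM, counts relative to the library size scaled by TMM factors, and changes as the log2 fold change of cerulein over saline ± SE from edgeR. The threshold for a call was an adjusted p of 0.05, over all 12441 genes tested. Of these, 28.7% were called higher and 27.1% lower, all 3 cerulein libraries lay above all 3 saline libraries in 32.4%, and all lay below in 30.6%. Over all genes the median log2 fold change was -0.001. Scaling moved that median to -0.2 with upper-quartile factors and to 0.56 with library size alone, with 2895 higher and 4190 lower, and 5181 higher and 1449 lower calls, against 3574 and 3373 here. The 10 acinar marker genes, led by Cela2a and Pnlip, made up 15.4% to 16.3% of counts in cerulein and 22.2% to 33.4% in saline libraries. Saline replicate 1 stood apart with the 22.2%, and it also had the highest saline sums of neutrophil (205 CPM, against 18.2 and 40.1), macrophage (431 CPM, against 206 and 300) and adipocyte markers (211 CPM, against 118 and 141). In bulk tissue, fewer cells of a type and less RNA per cell cannot be told apart.

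After cerulein, transcripts of 5 cholesterol synthesis enzymes (Hmgcs1, Fdps, Sqle, Cyp51 and Msmo1), of Srebf1, Srebf2 and Insig2, and of the fatty acid synthase Fasn were higher, by 1.42-fold to 5.06-fold. All 4 sterol exporters were lower, Abca1 and Abcg1 to about 0.3 of their saline level and Abcg5 and Abcg8 to a few reads. Most enzymes of the cholesterol pathway were not called. Of the 37 genes, 34 passed the filter on low counts, 10 were called higher, 9 lower and 15 were not called. These shares are near those of all genes, 28.7% and 27.1%. The groups did not overlap for 23 of them, 13 above and 10 below, and the median log2 fold change was -0.03. The split by role was uneven. Synthesis enzymes had 5 higher and 1 lower of 16 tested (median 0.05). Their share called higher and their median were thus near those of all genes (28.7%, median -0.001). Regulators had 3 higher of 4, with a positive log2 fold change in all 4 (median 0.58). Export, storage and LXR genes had 1 higher and 6 lower of 9 (median -1.19), and fatty acid synthesis genes 1 higher and 2 lower of 5 (median -0.44). The medians of 2 roles changed sign with the setting: that of the synthesis enzymes was -0.15 with upper-quartile factors, 0.62 with library size alone, 0.17 when cerulein replicate 3 was left out, -0.03 when saline replicate 1 was, and 0.35 when saline replicate 3 was. That of the fatty acid synthesis genes was 0.13 with library size alone. In all 14 alternative analyses 13 of the 19 calls held; these were Hmgcs1, Fdps, Sqle, Cyp51, Msmo1, Srebf2, Insig2 and Fasn, higher, and Abca1, Abcg1, Abcg5, Abcg8 and Scd2, lower. All of these therefore also held without saline replicate 1.

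**Figure D1:**
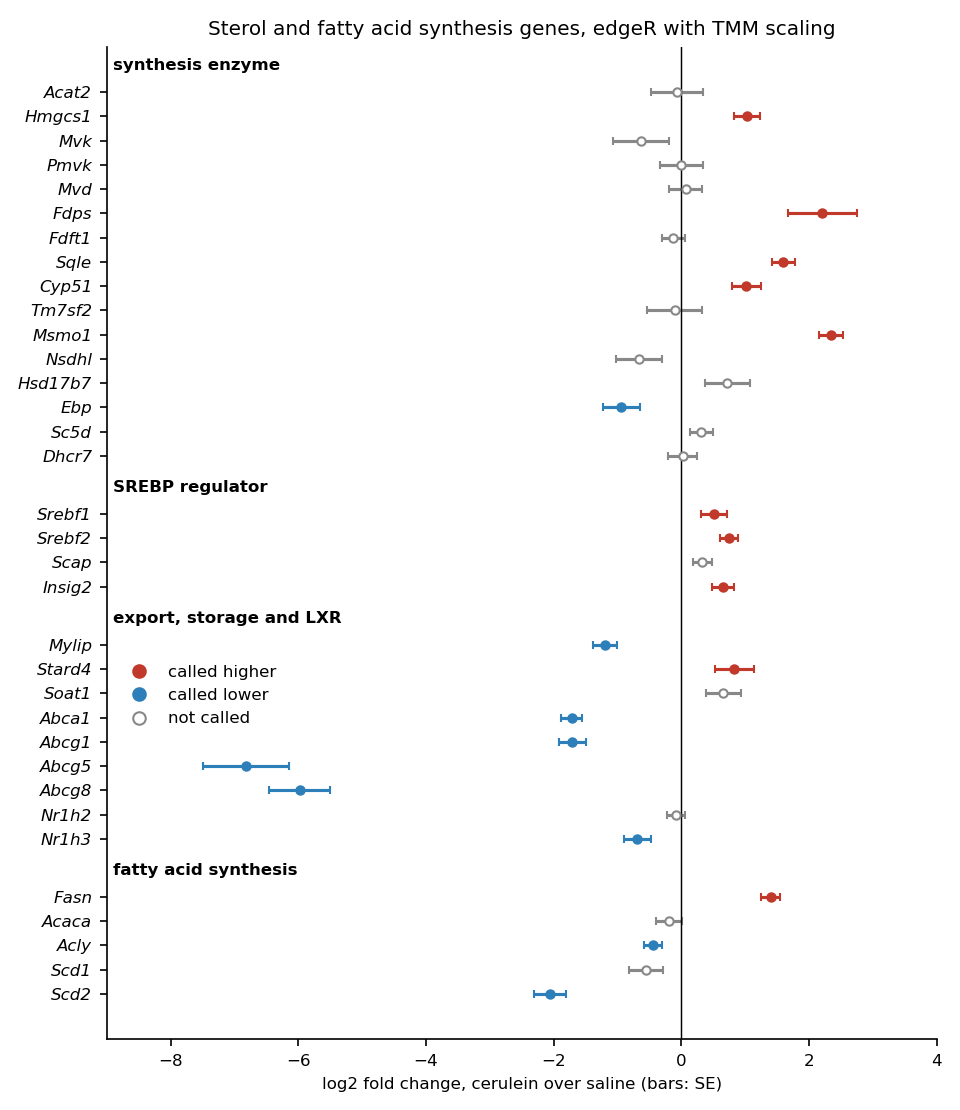
Log2 fold change of cerulein over saline (x axis, points, bars show the SE) for the 34 genes tested, grouped by role, with red for called higher, blue for called lower and open grey for not called. Abcg5 at -6.82 and Abcg8 at -5.98 lie farthest left, while Msmo1 at 2.34 lies farthest right.

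Msmo1, the methylsterol oxidase that removes methyl groups after lanosterol (chr8:64718123-64733578), had 39.8, 45.3 and 43.2 CPM in cerulein libraries, against 6.91, 8.33 and 10.5 CPM in saline libraries. Every cerulein library was more than 3 times the highest saline library. The log2 fold change was 2.34 ± 0.19 (5.06-fold, adjusted p = 5.54e-07, edgeR). Sqle, squalene epoxidase, an enzyme that limits the rate of the pathway (chr15:59315092-59331193), had 28.2, 28.1 and 31.1 CPM in cerulein libraries, against 10.0, 8.56 and 10.0 CPM in saline libraries. The groups were tight and far apart, and Sqle had a log2 fold change of 1.60 ± 0.18 (3.04-fold, adjusted p = 6.27e-06, edgeR).

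Hmgcs1, the cytosolic HMG-CoA synthase near the entry of the pathway (chr13:119690351-119708260), had 34.8, 33.1 and 38.9 CPM in cerulein libraries, against 15.4, 23.2 and 13.6 CPM in saline libraries. The groups did not overlap, and the saline libraries were the more spread (log2 fold change 1.03 ± 0.20, adjusted p = 7.43e-04, edgeR). Cyp51, the lanosterol demethylase (chr5:4080674-4104697), had 16.1, 12.4 and 12.6 CPM in cerulein libraries, against 7.58, 6.76 and 5.66 CPM in saline libraries. Its log2 fold change of 1.02 ± 0.23 was close to that of Hmgcs1 (adjusted p = 0.00185, edgeR). Fdps, which makes farnesyl pyrophosphate (chr3:89093588-89101967), was counted 38, 28 and 20 times in cerulein libraries, against 2, 4 and 5 times in saline libraries. The rise of 2.21 ± 0.54 in log2 terms (adjusted p = 0.00339, edgeR) rests on few reads in saline and has the largest SE among the called enzymes. Fdps passed the count filter through the cerulein libraries alone, so a lower call was not open to it.

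Ebp, the sterol isomerase acting late in the pathway, was the 1 enzyme gene called lower. It had 5.21, 7.37 and 5.18 CPM in cerulein libraries, against 9.21, 8.78 and 16.7 CPM in saline libraries. The groups did not overlap, but saline replicate 3 was nearly double the other saline libraries. The log2 fold change was -0.94 ± 0.29 (adjusted p = 0.0150, edgeR), and the call was lost without saline replicate 3, without cerulein replicate 1, without cerulein replicate 3 and with library size alone.

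The other 10 tested enzymes were not called. Hsd17b7, a sterol ketone reductase, lay above saline in every cerulein library, with means of 4.55 ± 1.43 CPM in cerulein and 2.71 ± 0.401 CPM in saline (SD, n = 3 each; log2 fold change 0.72 ± 0.35, adjusted p = 0.0995, edgeR). Nsdhl, which acts in the same demethylation steps, lay below in every cerulein library (2.24 ± 0.522 CPM in cerulein, 3.60 ± 0.421 CPM in saline; -0.66 ± 0.36, adjusted p = 0.139). Sc5d, a sterol desaturase, had 36.4 ± 3.77 CPM in cerulein and 29.6 ± 5.78 CPM in saline (0.31 ± 0.18, adjusted p = 0.158), and Mvk, mevalonate kinase, had 2.12 ± 0.720 CPM in cerulein and 3.25 ± 1.45 CPM in saline (-0.63 ± 0.44, adjusted p = 0.242). The log2 fold changes of Acat2, Pmvk, Mvd, Fdft1, Tm7sf2 and Dhcr7, enzymes spread from the first condensation to the last reduction, lay between -0.13 and 0.07. Their direction was not fixed: each changed sign under at least 1 alternative. Fdft1, squalene synthase, the enzyme between Fdps and Sqle, had 23.5 ± 3.53 CPM in cerulein and 25.9 ± 3.53 CPM in saline (SD, n = 3 each; -0.13 ± 0.18, adjusted p = 0.55, edgeR). Its span overlaps that of Ctsb, and Acat2 has the near-identical copy Acat3, so that both counts are uncertain.

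Idi1, the isopentenyl isomerase, and Lss, lanosterol synthase, did not pass the count filter. Idi1 had 25, 7 and 31 counts in cerulein libraries, against 9, 4 and 7 counts in saline libraries. Cerulein replicate 2 lay within the saline counts, so the groups overlapped. Lss had 6, 4 and 6 counts in cerulein libraries, against 4, 13 and 3 counts in saline libraries, and it lies in part across another gene of the table.

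Per kilobase of exon, the mean level among the enzymes was highest for Hmgcs1 (7.75), Sc5d (7.49) and Msmo1 (6.96 CPM per kb) in cerulein. In saline it was highest for Fdft1 (6.13), Sc5d (6.07) and Ebp (5.01 CPM per kb). Sqle stood at 5.25 CPM per kb in cerulein and 1.72 in saline, and Msmo1 at 1.40 CPM per kb in saline.

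**Figure D2:**
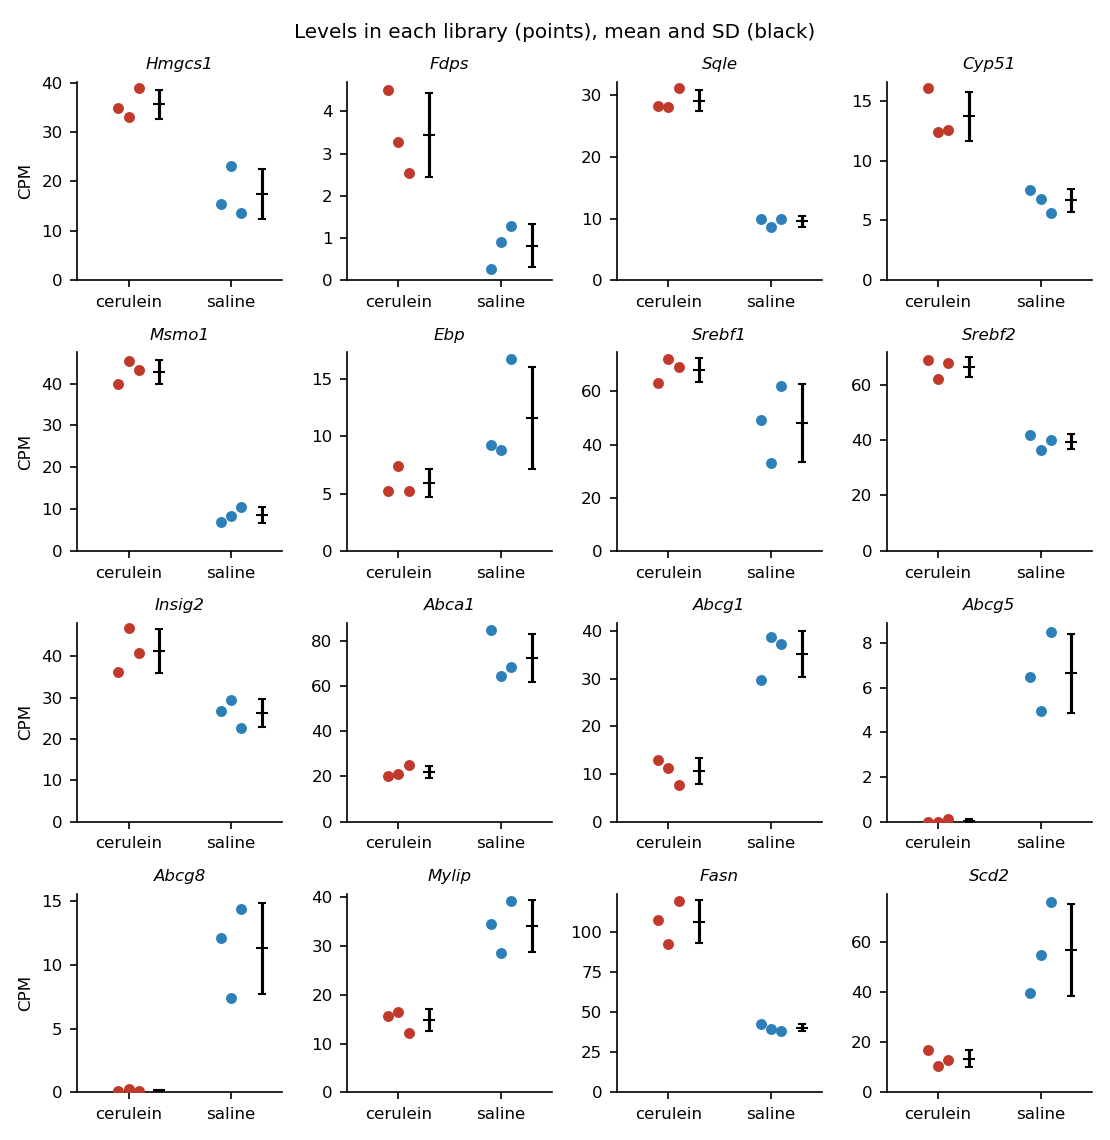
CPM (y axis, from 0, with a scale for each gene) in each library for 16 called genes, cerulein left in red and saline right in blue, with the mean and SD in black. For Srebf1 the lowest cerulein library, 63.3 CPM, is barely above the highest saline library, 62.0 CPM, while Abcg5 and Abcg8 are near 0 in every cerulein library.

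Among the regulators, Srebf2, which encodes the SREBP most tied to cholesterol genes (chr15:82147269-82205379), had 69.0, 62.1 and 67.8 CPM in cerulein libraries, against 41.7, 36.5 and 40.1 CPM in saline libraries. Both groups were tight, and the log2 fold change was 0.75 ± 0.14 (1.68-fold, adjusted p = 6.01e-04, edgeR). Insig2, an anchor that keeps Scap in the endoplasmic reticulum (chr1:121304353-121332662), had 36.1, 46.8 and 40.8 CPM in cerulein libraries, against 26.7, 29.3 and 22.6 CPM in saline libraries. It rose by 0.65 ± 0.17 in log2 terms (adjusted p = 0.00517, edgeR). Srebf1, whose products favour fatty acid genes, had 63.3, 72.2 and 69.1 CPM in cerulein libraries, against 49.2, 32.9 and 62.0 CPM in saline libraries. The log2 fold change of 0.51 ± 0.20 (adjusted p = 0.0426, edgeR) lost its call without each of 4 libraries in turn (cerulein replicates 1, 2 and 3 and saline replicate 2), with upper-quartile factors and with DESeq2.

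Scap itself had 88.7 ± 4.01 CPM in cerulein and 70.5 ± 9.92 CPM in saline (SD, n = 3 each), with every cerulein library above saline but no call (0.33 ± 0.15, adjusted p = 0.0783, edgeR). Scap was called higher without saline replicate 2 (0.45) and with library size alone (0.92). Insig1, the other anchor, was listed at 0 in all 6 libraries. Its span lies inside that of Gm35223. Of 798 protein-coding genes lying inside another gene of the table, 96.2% were at 0, against 27.8% of 14575 that overlap none, so this 0 was taken as no measurement. The log2 ratio of Srebf1 to Srebf2 within a library was 0.04 ± 0.17 in cerulein and 0.24 ± 0.39 in saline (SD, n = 3 each), a difference of -0.20 (two-sided exact permutation test, p = 0.6, adjusted over 4 gene pairs 0.8).

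The 4 sterol exporters were all lower. Abcg5 and Abcg8, whose products pair to pump sterols out of liver and gut cells, were close to undetected after cerulein. Abcg8 had 1, 2 and 1 counts in cerulein libraries, against 89, 33 and 56 counts in saline libraries. Abcg5 had 0, 0 and 1 counts in cerulein libraries, against 48, 22 and 33 counts in saline libraries. Every saline library thus held at least 22 reads of each gene and no cerulein library more than 2. After scaling for library size, the ratio of cerulein to saline was 0.0142 for Abcg8 (exact 95% interval 0.00382 to 0.0369) and 0.00612 for Abcg5 (0.000154 to 0.0349). These intervals cover counting error only. The fitted log2 fold changes were -5.98 ± 0.48 for Abcg8 (adjusted p = 3.96e-07, edgeR) and -6.82 ± 0.67 for Abcg5 (adjusted p = 2.46e-06, edgeR), and at so few reads their size depends on the prior count. Both genes passed the count filter through the saline libraries alone, so a higher call was not open to them. The p-values therefore add little to the counts. The annotated spans of the pair, chr17:84658174-84683011 for Abcg5 and chr17:84676302-84700333 for Abcg8, overlap by 6710 bases on opposite strands, and whether counting used strand is not given in the sources used here.

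Abca1, which loads cholesterol onto lipid-poor apolipoprotein (chr4:53030789-53159988), had 20.1, 20.9 and 25.0 CPM in cerulein libraries, against 84.6, 64.4 and 68.4 CPM in saline libraries. The highest cerulein library was well below the lowest saline library, and Abca1 fell by a log2 fold change of -1.72 ± 0.17 (adjusted p = 2.07e-06, edgeR). Abcg1, which passes sterol to lipoprotein particles (chr17:31057694-31117984), had 12.9, 11.3 and 7.70 CPM in cerulein libraries, against 29.7, 38.7 and 37.3 CPM in saline libraries. Its log2 fold change was nearly that of Abca1, at -1.71 ± 0.21 (adjusted p = 1.71e-05, edgeR). The log2 ratio of Abca1 to Abcg1 was 1.07 ± 0.55 in cerulein and 1.04 ± 0.41 in saline (SD, n = 3 each), a difference of 0.03 (two-sided exact permutation test, p = 0.9, adjusted 0.9).

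Mylip, an LXR target that sends lipoprotein receptors to degradation, had 15.7, 16.5 and 12.2 CPM in cerulein libraries, against 34.4, 28.6 and 39.1 CPM in saline libraries. The groups were well apart (log2 fold change -1.19 ± 0.19, adjusted p = 1.26e-04, edgeR), and the call was lost with library size alone. Of the receptors, Nr1h3 (LXR alpha) had 13.0, 11.2 and 9.85 CPM in cerulein libraries, against 14.2, 22.1 and 19.5 CPM in saline libraries. Saline replicate 1 lay close to the cerulein libraries; the log2 fold change was -0.69 ± 0.21 (adjusted p = 0.0137, edgeR), with the call lost without cerulein replicate 3, without saline replicate 2, without saline replicate 3 and with library size alone. Nr1h2 (LXR beta) had 46.0 ± 2.05 CPM in cerulein and 48.6 ± 2.98 CPM in saline (SD, n = 3 each; -0.08 ± 0.14, adjusted p = 0.667, edgeR), and was called higher, by 0.50, with library size alone. The log2 ratio of Nr1h3 to Nr1h2 was -2.02 ± 0.23 in cerulein and -1.40 ± 0.25 in saline (SD, n = 3 each), a difference of -0.62 with no overlap (two-sided exact permutation test, p = 0.1, the smallest that 3 against 3 allows, adjusted 0.2).

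Stard4 and Soat1 act on cholesterol within the cell. Stard4, a carrier of cholesterol inside the cell, had 6.98, 5.03 and 7.07 CPM in cerulein libraries, against 4.60, 2.93 and 2.83 CPM in saline libraries. The call (log2 fold change 0.83 ± 0.31, adjusted p = 0.0374, edgeR) was lost without cerulein replicate 1, cerulein replicate 3, saline replicate 2 or saline replicate 3, with upper-quartile factors, with DESeq2 and with limma-voom. Soat1, which esterifies cholesterol for storage, had 8.86 ± 2.03 CPM in cerulein and 5.55 ± 1.03 CPM in saline (SD, n = 3 each), not called although the groups did not overlap (0.66 ± 0.27, adjusted p = 0.0541, edgeR). Soat1 was called higher without cerulein replicate 3 (0.85), with library size alone, with both other filters and with the replicate block.

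Enzymes and exporters can also be set against each other inside each library, with no scaling. The counts of the 18 synthesis enzymes summed to 6.73, 7.09 and 6.95 times those of the 4 exporters in cerulein libraries, against 0.978, 1.36 and 1.21 times in saline libraries. In CPM, the enzymes summed to 223, 231 and 229 in cerulein, against 130, 157 and 156 in saline libraries, and the exporters to 33.1, 32.5 and 33.0 in cerulein, against 133, 116 and 129 in saline libraries. These sums weigh genes by abundance. Most of the higher enzyme sum in cerulein came from Msmo1, Sqle and Hmgcs1, and most of each exporter sum was Abca1 and Abcg1. Of the 16 enzymes tested, 10 were not called, and the median log2 fold change of all 16 was 0.05. The ratio therefore does not describe a rise shared by all 18 enzymes. No test is given for these sums, as the genes were chosen with results known.

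**Figure D3:**
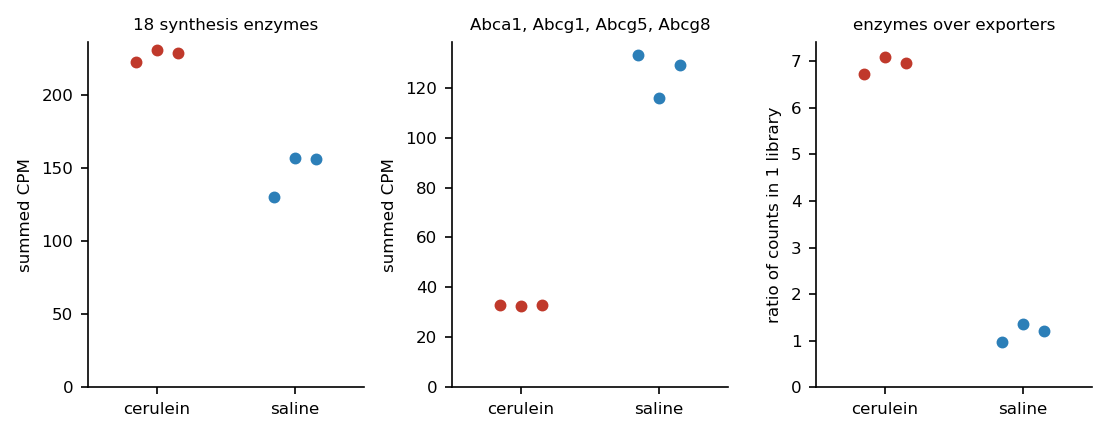
Summed CPM of the 18 synthesis enzymes (left) and of the 4 exporters (middle), and the ratio of their counts within each library (right), 1 point per library, cerulein left in red and saline right in blue, y axes from 0. The ratio is 6.73 to 7.09 in cerulein and 0.978 to 1.36 in saline libraries. Most of the higher enzyme sum came from Msmo1, Sqle and Hmgcs1, and most of each exporter sum was Abca1 and Abcg1.

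Fatty acid synthesis, the other branch under SREBP and LXR, was split. Fasn, fatty acid synthase (chr11:120805958-120825166), had 107, 92.3 and 119 CPM in cerulein libraries, against 42.5, 39.6 and 38.3 CPM in saline libraries. All cerulein libraries were more than double saline, and Fasn rose by 1.40 ± 0.15 in log2 terms (2.63-fold, adjusted p = 6.55e-06, edgeR). Scd2, a desaturase that makes monounsaturated fatty acids (chr19:44293676-44306864), had 17.0, 10.5 and 13.1 CPM in cerulein libraries, against 39.7, 55.0 and 76.1 CPM in saline libraries. It fell by a log2 fold change of -2.06 ± 0.25 (adjusted p = 3.43e-05, edgeR), with the saline libraries spread widely. Its paralogue Scd1 had 93.5, 52.4 and 42.9 CPM in cerulein libraries, against 110, 78.6 and 87.2 CPM in saline libraries, overlapping groups and no call (-0.55 ± 0.27, adjusted p = 0.113, edgeR). Scd1 was called lower without cerulein replicate 1 (-0.94), with no count filter and with the replicate block, and its log2 fold change was 0.01 with library size alone. The log2 ratio of Scd1 to Scd2 was 2.15 ± 0.40 in cerulein and 0.73 ± 0.66 in saline (SD, n = 3 each), a difference of 1.43 (two-sided exact permutation test, p = 0.1, the smallest possible, adjusted 0.2).

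Acly, which supplies cytosolic acetyl-CoA to both branches, had 50.4 ± 3.36 CPM in cerulein and 68.6 ± 5.24 CPM in saline (SD, n = 3 each; log2 fold change -0.44 ± 0.14, adjusted p = 0.0166, edgeR). The call was lost without cerulein replicate 2, cerulein replicate 3 or saline replicate 3 and with no count filter, and the sign turned to 0.13 with library size alone. Acaca, the carboxylase that commits acetyl-CoA to fatty acids, had 11.2 ± 1.12 CPM in cerulein and 12.8 ± 0.920 CPM in saline (SD, n = 3 each; -0.19 ± 0.20, adjusted p = 0.427, edgeR), and its span overlaps other genes.

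The wider pathways were described by 5 further gene lists, with up to 4 genes of each named by smallest p. Over all genes tested, 28.7% were called higher and 27.1% lower, with a median log2 fold change of -0.001. The lists of SREBP processing and of the non-sterol isoprenoid branch had smaller shares than these in both directions. Of 8 tested genes of SREBP processing and sterol-regulated degradation, 1 was higher and 1 lower (median log2 fold change -0.12). Erlin1, an endoplasmic reticulum protein that binds cholesterol and restrains SREBP, averaged 28.7 ± 9.07 CPM in cerulein and 12.0 ± 0.864 CPM in saline (SD, n = 3 each; 1.25 ± 0.23, adjusted p = 4.18e-04, edgeR). Mbtps2, the protease that releases SREBP from the membrane, was at -0.53 ± 0.21 (adjusted p = 0.0433, edgeR), a call that held in 4 of 14 alternatives, with a change of sign to 0.02 with library size alone. Faf2, which acts in the degradation of membrane proteins of the endoplasmic reticulum, was at 0.41 ± 0.17 and not called (adjusted p = 0.0514, edgeR). Fbxw7, the ubiquitin ligase subunit that marks nuclear SREBP for degradation, was at -0.49 ± 0.20 and not called (adjusted p = 0.0520, edgeR), with overlapping groups and a change of sign to 0.07 with library size alone.

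Of 12 tested genes of sterol uptake and transport within the cell, 3 were higher and 4 lower (median -0.12). Gramd1b, which carries plasma membrane cholesterol to the endoplasmic reticulum, had 15.3 ± 2.73 CPM in cerulein and 140 ± 38.9 CPM in saline (SD, n = 3 each; log2 fold change -3.20 ± 0.22, adjusted p = 1.48e-07, edgeR). Tmem97, a sterol-binding membrane protein, had 43.5 ± 3.66 CPM in cerulein and 374 ± 98.4 CPM in saline (SD, n = 3 each; -3.10 ± 0.22, adjusted p = 1.38e-07, edgeR). Gramd1a, of the same family as Gramd1b, was at -0.71 ± 0.14 (adjusted p = 7.81e-04, edgeR), a call lost with library size alone, and Stard5, a soluble sterol carrier, was higher (1.01 ± 0.20, adjusted p = 7.21e-04, edgeR).

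Of 9 tested genes around oxysterols and LXR, 2 were higher and 4 lower (median 0.08). Ch25h, which makes an oxysterol from cholesterol, had 17.6, 19.8 and 19.2 CPM in cerulein libraries, against 2.17, 1.58 and 2.31 CPM in saline libraries. That is 9.22-fold higher, with no overlap (log2 fold change 3.20 ± 0.25, adjusted p = 3.17e-07, edgeR). Nr1h4, the bile acid receptor FXR, had 1.40 ± 0.138 CPM in cerulein and 28.7 ± 2.48 CPM in saline (SD, n = 3 each; -4.33 ± 0.23, adjusted p = 1.51e-08, edgeR). Lpcat3, a phospholipid acyltransferase and LXR target, was at -1.12 ± 0.17 (adjusted p = 8.97e-05, edgeR), a call lost with library size alone. Lower too was Smpdl3a, a phosphodiesterase known as an LXR target in human macrophages (-2.19 ± 0.19, adjusted p = 7.24e-07, edgeR).

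Of 13 tested genes of the non-sterol isoprenoid branch, 3 were higher and 2 lower (median -0.09). Rce1, which trims prenylated proteins, rose by 1.09 ± 0.20 (adjusted p = 4.55e-04, edgeR) and Fntb, a farnesyltransferase subunit, by 0.63 ± 0.21 in log2 terms (adjusted p = 0.0204, edgeR), the last lost with upper-quartile factors, with DESeq2 and without cerulein replicate 2 or saline replicate 3. Icmt, which methylates prenylated proteins, was at 0.43 ± 0.15 (adjusted p = 0.0273, edgeR), a call lost with upper-quartile factors, with DESeq2 and without cerulein replicate 1, cerulein replicate 2, saline replicate 1 or saline replicate 3. Coq2, of coenzyme Q synthesis, was lower (-1.18 ± 0.18, adjusted p = 8.84e-05, edgeR), a call lost with library size alone.

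Of 15 tested genes of fatty acid elongation, desaturation and glyceride synthesis, 3 were higher and 7 lower (median -0.88). Me1, malic enzyme, which supplies NADPH for lipid synthesis, had 43.7, 65.8 and 48.4 CPM in cerulein libraries, against 3.11, 2.03 and 1.29 CPM in saline libraries. That 22.7-fold rise (log2 fold change 4.51 ± 0.28, adjusted p = 5.05e-08, edgeR) was the largest among the genes named from these further pathway lists. Mid1ip1, which promotes the assembly of acetyl-CoA carboxylase, rose by 1.33 ± 0.17 (adjusted p = 1.85e-05, edgeR). Gpam, which starts glyceride synthesis, had 21.4 ± 4.47 CPM in cerulein and 194 ± 24.6 CPM in saline (SD, n = 3 each; -3.19 ± 0.19, adjusted p = 4.08e-08, edgeR), and the carboxylase Acacb was at -2.16 ± 0.16 (adjusted p = 1.93e-07, edgeR).

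**Figure D4:**
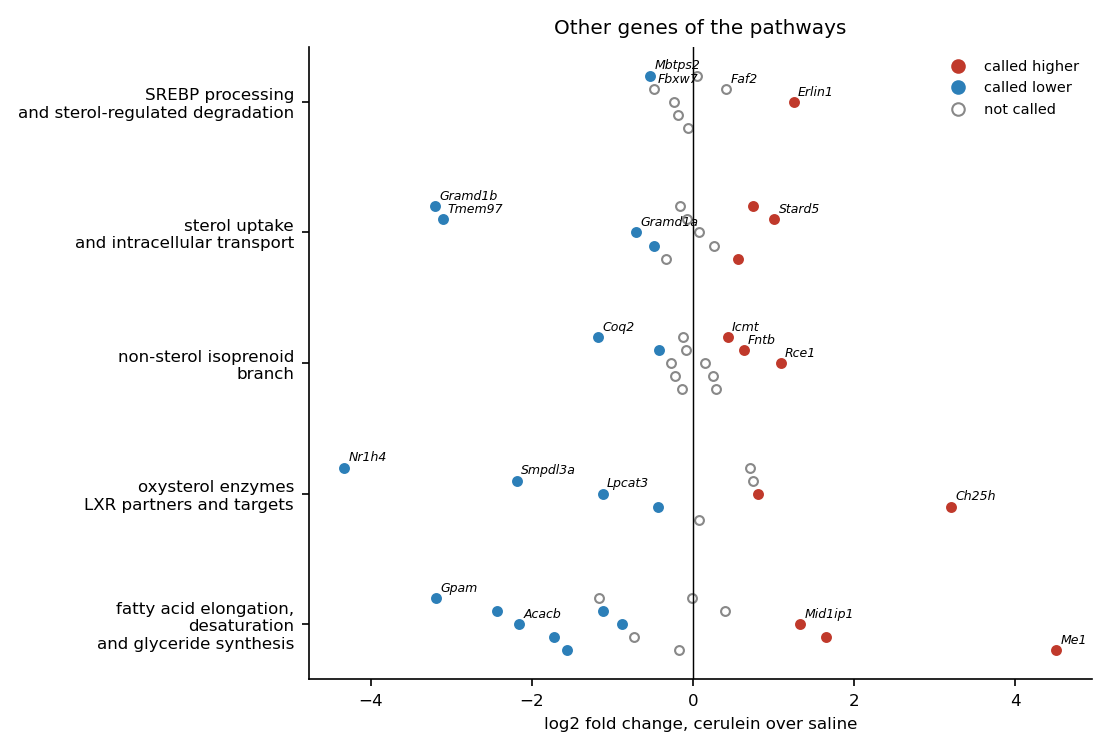
Log2 fold change of cerulein over saline (x axis) for the tested genes of the 5 further lists (rows, points spread vertically only to be seen), with red for called higher, blue for called lower, open grey for not called, and the named genes labelled. Me1 at 4.51 and Ch25h at 3.20 lie farthest right, Nr1h4 at -4.33 farthest left.

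Markers of several cell types moved with these groups, and their part in the results was not tested. The counts of calls below stand beside 28.7% higher and 27.1% lower over all genes tested. All 10 acinar markers were called lower, and they summed to 122000 to 145000 CPM in cerulein and 216000 to 458000 CPM in saline libraries. Of 6 ductal markers, led by Krt19 and Epcam, 5 were higher and 1 lower (794 to 1000 CPM summed in cerulein, 76.7 to 95.3 CPM in saline). Of 10 macrophage markers, led by Lyz2 and Cd14, 4 were higher and 6 not called (560 to 662 CPM in cerulein, 206 to 431 CPM in saline). Abca1 and Abcg1, which macrophages also express, fell in the same libraries. Adipocyte markers, led by Fabp4 and Cfd, had 1 higher and 1 lower of 6 tested (108 to 144 CPM in cerulein, 118 to 211 CPM in saline); neutrophil markers, led by S100a9 and S100a8, had 1 higher and 5 not called of 6 tested (49.7 to 120 CPM in cerulein, 18.2 to 205 CPM in saline). Endothelial markers, led by Pecam1 and Eng, had 2 higher and 2 lower of 8 (153 to 186 CPM in cerulein, 154 to 175 CPM in saline), and fibroblast and stellate markers, led by Dcn and Col3a1, had 2 higher and 1 lower of 8 (351 to 474 CPM in cerulein, 389 to 448 CPM in saline). Because Abcg5 and Abcg8 are best known from liver and gut, lists for both were added after seeing the data. Hepatocyte markers, led by Ttr and Cyp2e1, summed to 7.84 to 11.5 CPM in cerulein and 33.8 to 52.5 CPM in saline, with 2 of 2 tested genes lower. Those 2 were Ttr (means of 3.72 CPM in cerulein and 25.6 CPM in saline) and Cyp2e1 (5.41 and 14.9 CPM). They made up most of each sum, so it does not speak for the list as a whole. Below the count filter, Ahsg had 4 counts in cerulein and 21 in saline, and Fgb had 5 and 0. Alb, the albumin gene, had 3, 6 and 3 counts in cerulein libraries, against 3, 1 and 5 counts in saline libraries, and Cyp3a11 and Serpina1a were at 0 in all libraries. Intestinal epithelium markers, led by Vil1 and Muc2, summed to 2.49 to 5.56 CPM in cerulein and 1.03 to 2.48 CPM in saline, with 1 of 1 tested higher and Fabp2, Sis and Alpi at 0.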

How the data were processed

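Polyadenylated RNA of 6 mouse pancreas samples, kept in RNAlater and extracted with TRIzol, was sequenced from TruSeq Stranded mRNA libraries, per the labels' protocols. The deposited table holds the authors' unnormalized counts of reads for each gene, 1 column per library. Trimmomatic, STAR, HTSeq and mm10 are named in the submitters' processing notes, without settings; the annotation and the use of strand in counting are not stated there. Rows were matched to RefSeq genes of GRCm38.p6 by symbol, gene ID or older symbol, and 1087 stayed unmatched. No library was a repeat of another within sampling noise.

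Counts were used as deposited. Genes passing filterByExpr in edgeR 4.0.16 (R 4.3.3; minimum count 10, minimum total 15) were scaled with TMM factors, which were 1.13 to 1.30 in cerulein and 0.719 to 1.03 in saline, and analysed with the robust, two-sided quasi-likelihood F test, adjusted by Benjamini-Hochberg over all genes tested. Standard errors come from the F statistics. The filter asks for enough counts in as many libraries as 1 group holds, so a gene near 0 in 1 group passed through the other group alone. Ratios of gene pairs used counts plus 0.5 and a two-sided exact permutation test over libraries. Exon lengths came from GENCODE. The test was first run on simulated counts in which a small share of genes changed, evenly up and down. Far more genes were called in these data, so that run does not bear on the choice of scaling. Alternatives were 2 other scaling factors, library size alone, 2 other filters, DESeq2 1.42.0, limma-voom (limma 3.58.1), a replicate block and leaving out each library.

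The genes and lists were chosen with earlier results of these data known. All 37 genes are accounted for; of each pathway list the 4 tested genes with the smallest p are named, and of each marker list the summed CPM and the 2 most abundant genes. Alb, Ahsg, Fgb, Cyp3a11, Serpina1a, Fabp2, Sis and Alpi were named after their values were seen. Some genes of these pathways are not reported here and were left out of the lists. Replicate numbers were not used as pairs.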

Additional observations from a re-analysis of the deposited data

How the results depend on the processing

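Of the 19 calls, 13 held in all 14 alternatives. Without the scaling factor (library size alone), 1449 genes in all were called lower, 0 synthesis enzymes and 1 fatty acid synthesis gene were lower, and 3 genes of export, storage and LXR were higher. That last count, 1 in the report, was 0 with upper-quartile factors, DESeq2 and limma-voom, and 2 with no count filter, with CPM above 1 in 3 libraries and with the replicate block. Leaving out 1 library at a time gave 0 to 1 such genes, 0 to 1 lower synthesis enzymes and 1 to 3 lower fatty acid synthesis genes. With library size alone the log2 fold change turned to 0.49 for Acat2, 0.54 for Pmvk, 0.44 for Fdft1, 0.49 for Tm7sf2, 0.50 for Nr1h2, 0.38 for Acaca, 0.13 for Acly, 0.01 for Scd1, 0.02 for Mbtps2 and 0.07 for Fbxw7. With upper-quartile factors it turned to -0.12 for Mvd and -0.17 for Dhcr7. Pmvk was at 0.07 with no count filter and 0.01 with the CPM filter, and Tm7sf2 at 0.01 with limma-voom. Leaving out 1 library gave -0.18 to 0.08 for Acat2, -0.18 to 0.20 for Pmvk, -0.03 to 0.13 for Mvd, -0.34 to 0.37 for Tm7sf2, -0.15 to 0.14 for Dhcr7 and -0.28 to 0.27 for the log2 ratio of Abca1 to Abcg1. Scaling by construction shifts all genes together; the causes of the other changes were not tested.

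Hsd17b7 (1.28) and Sc5d (0.91) were called higher with library size alone only. Faf2 gained a call in 5 and Fbxw7 in 5 of the 14 alternatives. Leaving out 1 library gave -0.94 to -0.33 for Scd1.

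Deviations of same-numbered libraries from their group means correlated at 0.19, 0.216 and -0.15, and those of differently numbered libraries at -0.293 to 0.0884. With 3 libraries per group these values cannot settle whether the numbers mark pairs. The labels do not say that they do, so the numbers were not taken as pairs. The replicate block gave 3673 genes higher and 3401 lower, against 3574 and 3373 without it. At 5335117 to 7610775 counts per library, Idi1 and Lss were too low to test in the main analysis and Insig1 was not measured. Without cerulein replicate 2, 6 synthesis enzymes were called higher, against 5 in the main analysis. The further enzyme was one that the main count filter had removed.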
